A study of Mus musculus with 12 samples.

Results

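The genes described here are 9 grouped as feedback regulators of the RAS to ERK signalling pathway, though DUSP10 acts mainly on p38 and JNK. They were taken from a study of 12 arrays of G1ME cells, a Gata1-negative mouse line of megakaryocyte-erythroid progenitors. They are 5 dual-specificity phosphatases (Dusp2, Dusp4, Dusp5, Dusp6 and Dusp10), 2 Sprouty genes (Spry1 and Spry2) and 2 Sprouty-related genes (Spred1 and Spred2), found as the probe sets whose annotation gives one of these symbols alone. Together they had 22 probe sets among 45101 on the array, and they are 9 of 18193 genes with a probe set of a single symbol. The brightest probe set of a gene stood for it, and 7 of the 9 genes were among the 10759 that passed the filter on low values.

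The 4 groups of 3 arrays, lettered A, B and C, were cells given a GATA1 construct or the MIGR1-GFP vector alone, sorted for green fluorescence at 42 h or 18 h after transduction. The submitters call the triplicates biological. All groups were the same single cell line without its own GATA1 and went through transduction and sorting, so no array shows untransduced cells or cells with normal GATA1. The labels do not say what drives GATA1 in the construct or how its level compares with that of normal progenitors. GATA1 is a zinc finger transcription factor needed for red cell and megakaryocyte maturation.

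ERK is the last kinase of the RAF, MEK and ERK cascade, which RAS starts when a growth factor such as stem cell factor binds its receptor, the tyrosine kinase KIT. Active ERK induces genes whose products shut the same pathway off. Dual-specificity phosphatases remove phosphate from MAP kinases, whereas Sprouty and SPRED proteins act further up, between the receptor and RAF. In blood progenitors KIT signalling supports growth and survival, and in these lineages Kit is repressed as GATA1 replaces GATA2. The question set for these genes was whether they are lower where Kit is lower.

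Stretches of the promoters of the 3 members that passed the test at 42 h are shown here because one of them moved against the other two. They are the 250 bases before the annotated start, from RefSeq on build GRCm38.p6, all on the plus strand: Dusp10 at chr1:184034131-184034380, Dusp2 at chr2:127335909-127336158 and Spred1 at chr2:117120821-117121070. Capitals mark the letters CGGAAG, a form of the core that ETS factors recognise. Other forms of that core were not searched for and are not marked.
Dusp10: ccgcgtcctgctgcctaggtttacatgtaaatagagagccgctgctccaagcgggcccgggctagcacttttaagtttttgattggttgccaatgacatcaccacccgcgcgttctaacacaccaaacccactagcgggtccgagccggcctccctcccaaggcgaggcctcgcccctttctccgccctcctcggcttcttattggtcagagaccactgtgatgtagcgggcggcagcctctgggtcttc
Dusp2: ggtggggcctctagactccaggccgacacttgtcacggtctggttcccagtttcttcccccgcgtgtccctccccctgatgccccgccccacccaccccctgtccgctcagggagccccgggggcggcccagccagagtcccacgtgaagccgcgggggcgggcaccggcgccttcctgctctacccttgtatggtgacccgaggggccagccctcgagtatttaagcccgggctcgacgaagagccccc
Spred1: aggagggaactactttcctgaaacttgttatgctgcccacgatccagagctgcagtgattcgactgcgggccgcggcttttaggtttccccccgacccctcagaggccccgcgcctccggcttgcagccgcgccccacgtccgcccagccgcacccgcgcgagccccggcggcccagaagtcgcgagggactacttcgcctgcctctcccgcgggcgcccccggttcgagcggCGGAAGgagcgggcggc
The G and C content of these stretches was 59.6% for Dusp10, 70.4% for Dusp2 and 70.8% for Spred1. RefSeq windows, which run from 250 bases before the start into the first bases of the gene, were matched for 8 members, Dusp4 being the other one. Both strands were searched for 5 motifs. CGGAAG was in 3 of the 8 windows and in 16.9% of all 32851 windows. In Spred1 it lay 17 bases before the start on the gene's strand, with another copy on the opposite strand just after the start. In Dusp6 it lay 62 bases before the start and in Spred2 43 bases before it, both on the opposite strand. The GATA words AGATAA, present in 11.2% of all windows, and TGATAA, present in 9.05%, were in 0 of the 8. The same held for the cAMP response element TGACGTCA, present in 1.79% of windows, and for the AP-1 word TGANTCA, present in 7.81%. These matches describe letters in short windows and show no binding.

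Levels below are the deposited linear intensities, and differences are those of mean log2(intensity + 16), GATA1 minus vector unless stated, with the SE of the limma fit and the Benjamini-Hochberg adjusted p over all 10759 genes. A gene passed the test where that p was under 0.05. The constant of 16 compresses the differences of dim probe sets. Each array's median intensity lay between 8.05 and 8.29. The probe set of Gata1 read 2418, 1714 and 1999 on arrays A, B and C of the cells labelled GATA1 at 42 h, against 3088, 3053 and 3268 in the cells labelled vector. The 18 h arrays gave 2311, 2257 and 2435 in GATA1-labelled cells, against 2815, 2864 and 3329 in vector-labelled cells. It was thus bright in all groups and lower in the GATA1-labelled ones, with a difference of -0.63 ± 0.11 at 42 h (adjusted p = 0.00346) and -0.36 ± 0.11 at 18 h, which did not pass (adjusted p = 0.226). The sources do not place this probe set on the disrupted gene or on the construct, so no label can be checked with it.

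Kit was far lower in the GATA1-labelled cells at both times. It read 40.4, 44.1 and 44.2 in GATA1-labelled cells at 42 h, against 731, 730.0 and 431 in vector-labelled cells, a difference of -3.42 ± 0.21 (adjusted p = 4.72e-06). Already at 18 h it read 78.5, 109 and 108 in GATA1-labelled cells, against 283, 411 and 354 in vector-labelled cells, a difference of -1.67 ± 0.21 (adjusted p = 0.00372). The effect was larger at 42 h than at 18 h (interaction -1.75 ± 0.30, adjusted p = 0.0108). From 18 h to 42 h Kit fell in GATA1-labelled cells (-0.95 ± 0.21, adjusted p = 0.0150). In vector-labelled cells it was higher at 42 h without overlap of the arrays, but did not pass (0.80 ± 0.21, adjusted p = 0.392). Both changes enter the interaction. With the second brightest Kit probe set the 18 h difference was -0.53 (adjusted p = 0.680) and the interaction was -1.39 (adjusted p = 0.0798), neither past the threshold. Without the 4 arrays lettered A neither was past it.

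At 42 h, 3 of the 7 tested members passed the test, 1 higher and 2 lower, where 20.9% of all genes passed, 10.3% higher and 10.6% lower. Dusp10 rose, and Dusp2 and Spred1 fell. Dusp4, Dusp6, Spry2 and Spred2 did not pass. The median difference of the 7 was -0.41, against 0.001 over all genes tested. At 18 h the only member to pass was Dusp10, again higher, where 1.85% of all genes passed, 1.11% higher and 0.744% lower, and the median of the 7 was 0.003 against -0.01 over all genes. With the replicate letter as a block (the replicate block), 358 genes passed at 18 h, against 199 without it. In these bulk samples fewer cells of a type and less RNA per cell cannot be told apart.

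**Figure D1:**
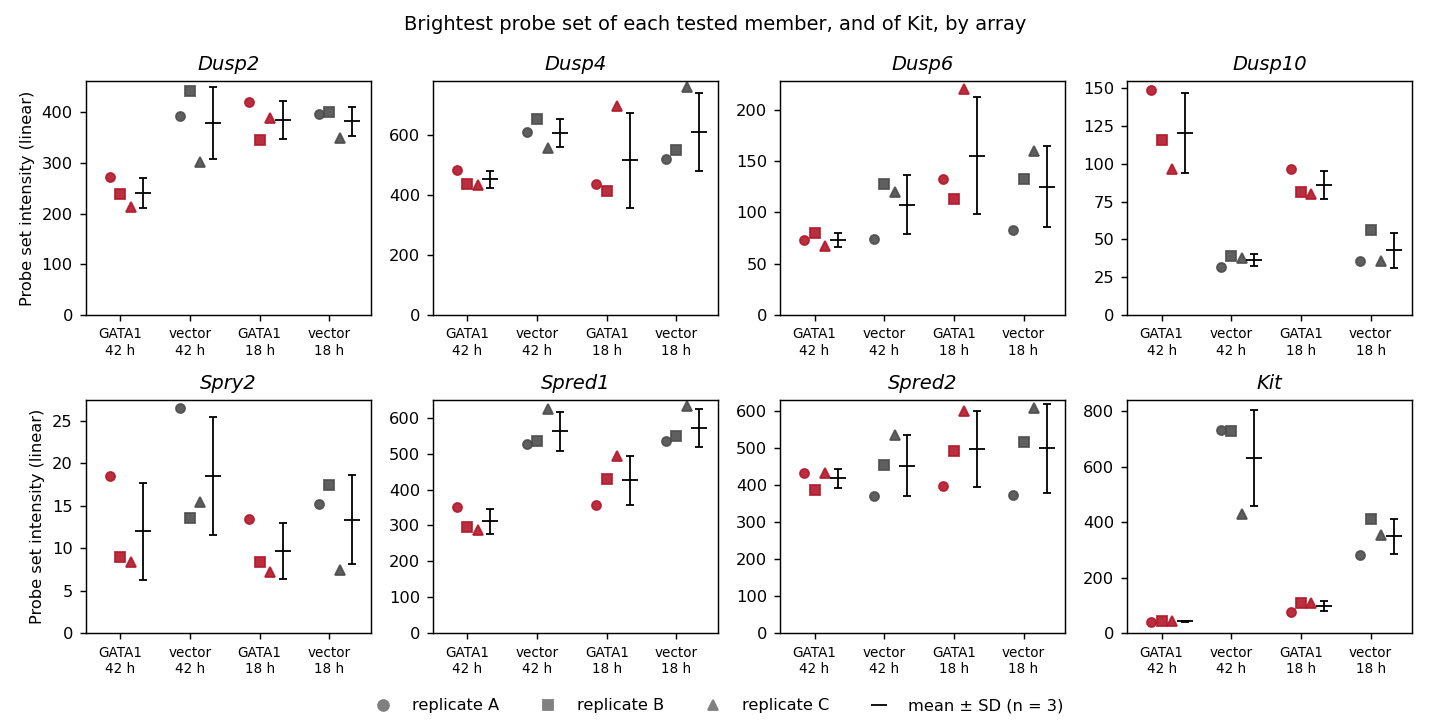
Linear intensity of the brightest probe set (vertical axes, each with its own scale from 0) on each array of the 4 groups (horizontal axes), for the 7 tested members and Kit. Symbols mark replicates A, B and C, and the bars beside them the mean ± SD (n = 3). Dusp10 is highest in GATA1-labelled cells at 42 h, at 96.2 to 149, and Spred1 is lowest there, at 287 to 351.

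Among the phosphatases, DUSP2 is a nuclear enzyme known chiefly from activated lymphocytes and acts on ERK. Dusp2 read 272, 238 and 212 in GATA1-labelled cells at 42 h, against 392, 442 and 302 in vector-labelled cells. Every GATA1-labelled array was below every vector-labelled one. The difference was -0.61 ± 0.14 (adjusted p = 0.0124), and it was -0.50, -0.85 and -0.48 within letters A, B and C. At 18 h Dusp2 read 420, 346 and 389 in GATA1-labelled cells, against 396, 400 and 349 in vector-labelled cells, so the groups overlapped and the difference was 0.01 ± 0.14 (adjusted p = 0.9999, 95% interval -0.30 to 0.32). The call at 42 h was lost when only the arrays compared were fitted (adjusted p = 0.0668) and without the 4 arrays lettered A (0.0717). The groups ran from GATA1 at 18 h through both vector groups, which overlapped one another, to GATA1 at 42 h, which overlapped none.

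Within the GATA1-labelled cells Dusp2 was lower at 42 h than at 18 h (-0.64 ± 0.14, adjusted p = 0.0132), with lower values in each of the 3 letters, and it was the 1 member of 7 to pass that comparison, where 14.6% of all genes passed. This call was lost without the 4 arrays lettered A (adjusted p = 0.0818). The test of whether the effect of GATA1 on Dusp2 differed between 42 h and 18 h gave -0.62 ± 0.20 (unadjusted p = 0.0112, adjusted p = 0.139), so a difference between the times was not established. It passed without vector 42 h replicate C, the lowest of the vector arrays at that time (-0.77, adjusted p = 0.0315). With the replicate block the adjusted p was 0.0584.

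DUSP4, DUSP5 and DUSP6 are inducible phosphatases of ERK, with DUSP6 in the cytoplasm and the other two in the nucleus. Dusp4 read 483, 438 and 435 in GATA1-labelled cells at 42 h, against 609, 653 and 558 in vector-labelled cells. These arrays did not overlap, yet the fitted difference of -0.41 ± 0.20 (95% interval -0.85 to 0.03) did not pass (adjusted p = 0.189). It passed when only the 6 arrays of that comparison were fitted (adjusted p = 0.0241). At 18 h Dusp4 read 436, 414 and 699 in GATA1-labelled cells, against 520, 550 and 761 in vector-labelled cells, with replicate C high in both groups. The 18 h groups overlapped, and the difference was -0.25 ± 0.20 (adjusted p = 0.946).

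Dusp6 read 73.0, 79.9 and 66.7 in GATA1-labelled cells at 42 h, against 74.2, 128 and 120 in vector-labelled cells, where replicate A was as low as the GATA1-labelled arrays. At 18 h it read 132, 113 and 220 in GATA1-labelled cells, against 82.4, 132 and 160.0 in vector-labelled cells. The differences, -0.44 ± 0.28 at 42 h (adjusted p = 0.334) and 0.27 ± 0.28 at 18 h (adjusted p = 0.9999), did not pass, and their 95% intervals ran from -1.07 to 0.19 and from -0.35 to 0.90. Over time within GATA1-labelled cells the Dusp6 arrays did not overlap (-0.89 ± 0.28, adjusted p = 0.0629). That difference passed in 4 of 23 alternatives, the replicate block among them (adjusted p = 0.0281). Dusp5, an ERK phosphatase of the nucleus, read 5.29 to 5.41 and was above the array's median on no array, so it was not tested.

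DUSP10, also called MKP5, acts mainly on the stress kinases p38 and JNK rather than on ERK. Dusp10 read 149, 116 and 96.2 in GATA1-labelled cells at 42 h, against 31.6, 39.2 and 37.9 in vector-labelled cells. At 18 h it read 96.7, 81.1 and 80.0 in GATA1-labelled cells, against 35.9, 56.2 and 35.8 in vector-labelled cells. All 6 GATA1-labelled arrays were thus above all 6 vector-labelled ones. The difference was 1.37 ± 0.16 at 42 h (adjusted p = 2.97e-04), which is 2.58-fold on this scale, and 0.81 ± 0.16 at 18 h (adjusted p = 0.0410). Within letters A, B and C it was 1.79, 1.25 and 1.06 at 42 h and 1.12, 0.43 and 0.89 at 18 h. The larger value at 42 h did not pass the test of the difference (0.56 ± 0.23, adjusted p = 0.275), nor did the comparison of 42 h with 18 h within GATA1-labelled cells (0.40 ± 0.16, adjusted p = 0.144).

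The 42 h call of Dusp10 was kept in every alternative that tested the gene, with adjusted p-values of 7.2e-05 to 0.00911. The 18 h call was close to the threshold and was lost in 15 of 22 alternatives, with adjusted p-values of 0.0147 to 0.254, the fit of single probe sets among them (0.0562). It was lost without the 4 arrays lettered A (0.254), and when any one of the GATA1 18 h or vector 42 h arrays, vector 18 h replicate A or C, or GATA1 42 h replicate B was left out (0.0580 to 0.166). A second Dusp10 probe set read 6.54 to 7.15, below the array's median on all 12 arrays, so the rise rests on 1 probe set, and a stricter filter, a mean intensity of at least 100, leaves the gene out.

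**Figure D2:**
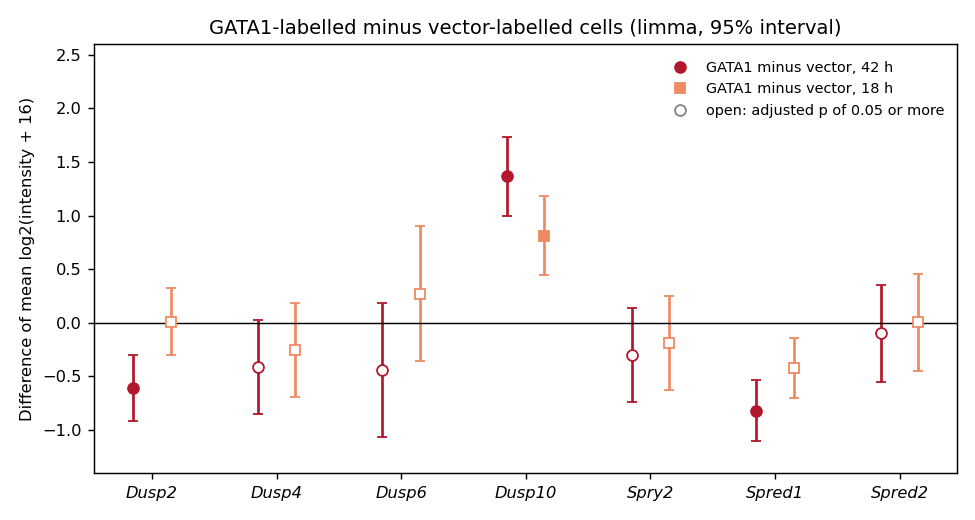
Difference of mean log2(intensity + 16) between GATA1-labelled and vector-labelled cells (vertical axis) for the 7 tested members (horizontal axis), at 42 h as circles and at 18 h as squares, with the 95% interval of the limma fit. Filled symbols passed the test: Dusp10 at both times (1.37 and 0.81), and Dusp2 (-0.61) and Spred1 (-0.82) at 42 h.

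Sprouty proteins are ERK-induced inhibitors that act below receptor tyrosine kinases. Spry2 was dim, at 18.6, 9.0 and 8.44 in GATA1-labelled cells at 42 h, against 26.5, 13.6 and 15.4 in vector-labelled cells. The 18 h values were 13.4, 8.38 and 7.23 in GATA1-labelled cells, against 15.2, 17.5 and 7.45 in vector-labelled cells. Replicate A was the highest in every group but vector at 18 h, the groups overlapped at both times, and the differences of -0.30 ± 0.20 at 42 h (adjusted p = 0.349) and -0.19 ± 0.20 at 18 h (adjusted p = 0.9999) did not pass. Within letters A, B and C they were -0.30, -0.24 and -0.36 at 42 h and -0.08, -0.46 and -0.01 at 18 h, lower in each pair, and with the replicate block they did not pass either (adjusted p = 0.104 at 42 h and 0.645 at 18 h). Near the bottom of the scale a change would be hard to detect. Spry1 read 3.34 to 3.40 on all 12 arrays and was not tested, and a second Spry2 probe set read 4.32 to 4.43.

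SPRED proteins hold RAS inactive, SPRED1 by bringing the RAS GTPase-activating protein neurofibromin to the membrane. In mouse bone marrow cells SPRED1 is known to restrain ERK activation by stem cell factor and interleukin-3. Spred1 read 351, 296 and 287 in GATA1-labelled cells at 42 h, against 527, 534 and 624 in vector-labelled cells. At 18 h it read 356, 429 and 492 in GATA1-labelled cells, against 535, 548 and 632 in vector-labelled cells. At each time all 3 GATA1-labelled arrays were below all 3 vector-labelled ones. The difference was -0.82 ± 0.13 at 42 h (adjusted p = 0.00137), and it was -0.57, -0.82 and -1.08 within letters A, B and C. At 18 h it was -0.42 ± 0.13 and did not pass (unadjusted p = 0.00807, adjusted p = 0.196). The effects at the 2 times were not shown to differ (-0.40 ± 0.18, adjusted p = 0.312).

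The 42 h call of Spred1 was kept under every alternative tried, with adjusted p-values of 2.99e-04 to 0.0208. In order of level, the vector groups at 18 h and 42 h overlapped, GATA1 at 18 h lay below both, and GATA1 at 42 h lay below that without overlap. Within the GATA1-labelled cells the difference of -0.43 ± 0.13 between 42 h and 18 h was just outside the threshold (adjusted p = 0.0516), and it came to -0.02 in letter A, -0.51 in B and -0.74 in C. This difference passed in 8 of 23 alternatives, the replicate block among them (adjusted p = 0.0391).

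Spred1 has 8 probe sets, which share a gene and are not replicates of it. Fitted one by one, an alternative chosen after the data were seen, 4 of them fell at 42 h, where 15.8% of 19636 probe sets passed. The brightest, 1423160_at, averaged 311 in GATA1-labelled cells and 562 in vector-labelled cells. Probe set 1460116_s_at averaged 246 in GATA1-labelled cells and 467 in vector-labelled cells (-0.89, adjusted p = 0.0223). Lower levels in GATA1-labelled cells were also seen on 1423161_s_at, with a difference of -0.81 (adjusted p = 0.00661), and on 1452911_at, with one of -0.79 (adjusted p = 0.0462). Neither 1423162_s_at (-1.03, adjusted p = 0.0808) nor 1428777_at (-0.51, adjusted p = 0.249) passed. The 2 dimmest were near the bottom of the scale, 1445228_at at 8.66 in GATA1-labelled cells and 8.92 in vector-labelled cells and 1443652_x_at at 4.75 to 4.91 throughout.

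Spred2, which codes for a close relative of SPRED1, read 433, 388 and 433 in GATA1-labelled cells at 42 h, against 370.0, 454 and 534 in vector-labelled cells. The values at 18 h were 398, 493 and 601 in GATA1-labelled cells, against 372, 516 and 609 in vector-labelled cells. The groups overlapped at both times. The differences were -0.10 ± 0.20 at 42 h (adjusted p = 0.848, 95% interval -0.55 to 0.35) and 0.003 ± 0.20 at 18 h (adjusted p = 0.9999). Its second brightest probe set, 1436892_at, averaged 76.9 in GATA1-labelled cells and 101 in vector-labelled cells at 42 h and did not pass either (-0.35, adjusted p = 0.570). No test set Spred2 against Spred1.

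**Figure D3:**
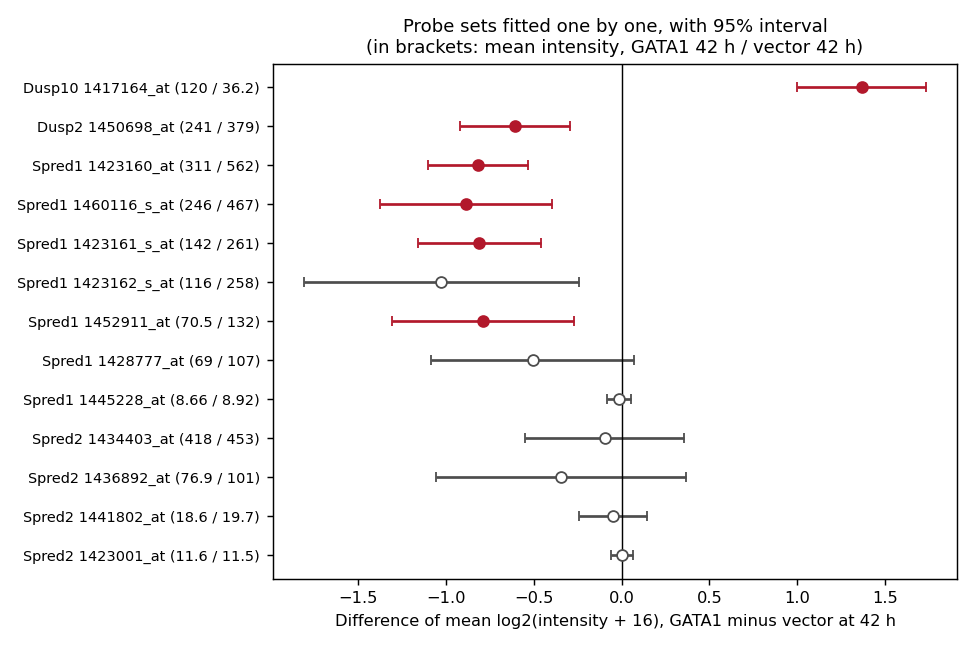
Difference of mean log2(intensity + 16), GATA1-labelled minus vector-labelled cells at 42 h (horizontal axis), with its 95% interval, for each tested probe set of Spred1 and Spred2 and for those of Dusp10 and Dusp2 (rows). Brackets give the mean intensity in GATA1-labelled and then in vector-labelled cells, and filled symbols passed the test in the fit of single probe sets, as 4 of the 7 tested Spred1 probe sets did.

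In the vector-labelled cells no member passed between 42 h and 18 h, where 0.0186% of all genes, 2 in number, passed. The members' differences, 42 h minus 18 h, ran from -0.18 for Dusp6 to 0.23 for Spry2, with adjusted p-values of 0.9958 to 0.999. Kit differed there by 0.80 ± 0.21 and did not pass (adjusted p = 0.392). No member passed the test of unequal GATA1 effects at the 2 times, which 4.66% of all genes did. With the replicate block 41 genes passed over time in vector-labelled cells and 846 passed the test of unequal effects, again with no member among them. This comparison and those of GATA1 with vector share arrays.

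Of 111 other genes of the pathway listed, 77 were tested. Some passed in each direction at 42 h, and their counts stand beside the 20.9% of all genes that passed there. Of 10 other dual-specificity phosphatases, 3 rose and 2 fell, with a median difference of 0.15. Dusp3, for a small phosphatase of ERK and JNK, averaged 344 ± 26.4 in GATA1-labelled cells and 85.3 ± 29.7 in vector-labelled cells (1.87, adjusted p = 3.42e-04). Dusp1, for the immediate early phosphatase MKP1, averaged 97.5 ± 10.04 in GATA1-labelled cells and 22.6 ± 2.38 in vector-labelled cells (1.55, adjusted p = 5.84e-05; SD, n = 3). The Dusp1 effect was larger at 42 h than at 18 h (interaction 1.40, adjusted p = 0.00465), a call lost without the arrays lettered A. Dusp19 rose by 0.38, Dusp18 differed by -0.79 and Dusp12 by -0.26. The call of Dusp18 was lost with its second brightest probe set (-0.23, adjusted p = 0.251). Those of Dusp19 and Dusp12 were lost without GATA1 42 h replicate B or C or vector 42 h replicate B, among others. At 18 h none of the 10 passed, and the 2 brightest, Dusp11 and Dusp19, differed by 0.001 and -0.06. The other Sprouty genes tested, Spry4 and Spry3, were near the bottom of the scale (9.58 and 8.14 in GATA1-labelled cells, against 9.52 and 8.21 in vector-labelled cells at 42 h) and passed in no comparison.

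Among 10 receptors and ligands at 42 h, 3 rose and Kit fell, with a median of 0.13. Epor, for the erythropoietin receptor, averaged 514 ± 149 in GATA1-labelled cells and 29.2 ± 2.88 in vector-labelled cells (3.51, adjusted p = 8.42e-06). Csf2rb2 (1.5002) and Csf2rb (0.99), for beta chains of the interleukin-3 receptor family, also rose, though the near-identical pair may share probes. At 18 h Epor (1.89, adjusted p = 0.00365) and Csf2rb (1.05, adjusted p = 0.0347) were higher. The Epor call at 18 h was lost when the fit held the compared arrays alone (adjusted p = 0.0539) and without the arrays lettered A (0.105). Csf2rb lost its 18 h call without any one of 8 single arrays and its 42 h call with the second brightest probe set (1.10, adjusted p = 0.115). The effect on Epor was larger at 42 h than at 18 h (interaction 1.62, adjusted p = 0.0258), a call lost without any one of 6 single arrays. Of 13 adaptors and exchange factors at 42 h, 2 rose and 2 fell, with a median of 0.02. Rasgrp2, for an exchange factor of RAP1 in platelets, averaged 1204 ± 283 in GATA1-labelled cells and 228 ± 3.95 in vector-labelled cells (2.30, adjusted p = 6.01e-05). Ptpn11, for the phosphatase SHP2, rose by 0.63. Gab2, for a docking protein below KIT, fell by 0.74, and Vav1 fell by 0.55. With the second brightest probe set Gab2 differed by -0.01 (adjusted p = 0.984) and Ptpn11 by 0.48 (adjusted p = 0.275). At 18 h Rasgrp2 was higher by 1.03 (adjusted p = 0.0456), less than at 42 h (interaction 1.27, adjusted p = 0.0459), calls lost without any one of 10 and of 11 single arrays.

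**Figure D4:**
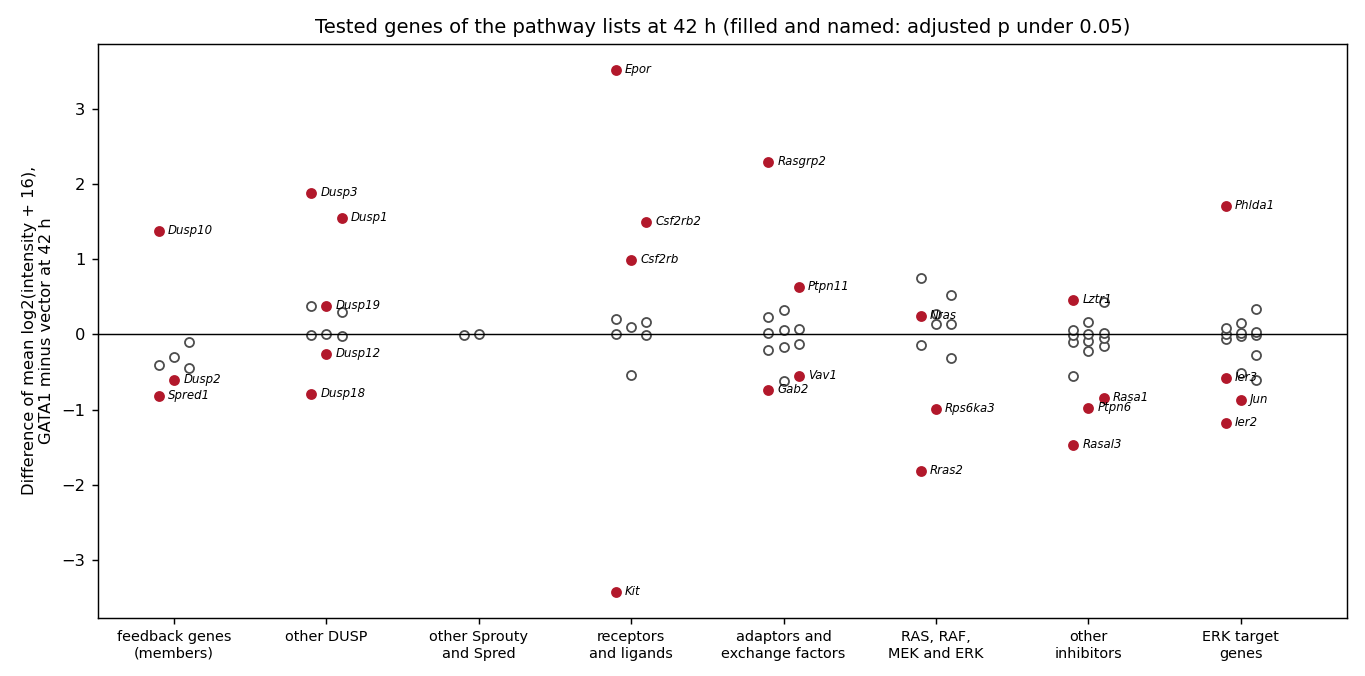
Difference of mean log2(intensity + 16), GATA1-labelled minus vector-labelled cells at 42 h (vertical axis), for every tested gene of the members and of the 7 other pathway lists (horizontal axis). Filled and named points passed the test. Each list but that of the other Sprouty and Spred genes holds genes that passed in both directions, from Kit at -3.42 to Epor at 3.51.

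Of the 10 tested RAS, RAF, MEK and ERK genes, 1 rose and 2 fell at 42 h, with a median of 0.14. Nras rose by 0.24, a call at the threshold (adjusted p = 0.0487) that was lost without any one of 10 single arrays. Rps6ka3, for the ERK-activated kinase RSK2, averaged 623 ± 17.6 in GATA1-labelled cells and 1263 ± 118 in vector-labelled cells (-0.997, adjusted p = 4.45e-05). Rras2 averaged 287 ± 89.1 in GATA1-labelled cells and 1049 ± 293 in vector-labelled cells (-1.82, adjusted p = 0.0282), a call lost without vector 42 h replicate A or B or GATA1 42 h replicate B or C. Rps6ka3 was the gene of this list whose effects differed between the times (interaction -0.91, adjusted p = 0.00329), a call lost with its second brightest probe set (-0.69, adjusted p = 0.0573). None of these 10 passed at 18 h, where the brightest, Nras and Map2k2, differed by 0.09 and 0.16. Of 16 other inhibitors, 1 rose and 3 fell at 42 h, with a median of -0.07. Lztr1, for an adaptor in RAS protein turnover, rose by 0.46, but by 0.14 (adjusted p = 0.690) with its second brightest probe set. Rasal3 and Rasa1, for GTPase-activating proteins of RAS, differed by -1.47 and -0.85 (adjusted p = 2.85e-05 for both), and Ptpn6, for the phosphatase SHP1, by -0.98 (adjusted p = 1.70e-04). The effects on Rasal3 (interaction -1.14, adjusted p = 0.00528) and Rasa1 (-0.52, adjusted p = 0.0167) were larger at 42 h than at 18 h. The first call was lost with the second brightest probe set (-1.11, adjusted p = 0.166) and the other without the arrays lettered A (-0.62, adjusted p = 0.0615). None passed at 18 h, where Pebp1 and Ptpn6 differed by 0.02 and -0.44. With the replicate block Ptpn6 passed at 18 h (adjusted p = 0.0267).

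Of 16 tested genes that ERK is known to induce, 1 rose and 3 fell at 42 h, with a median of -0.01, a share near the 20.9% of all genes that passed. At 18 h 1 rose and 2 fell, where 1.85% of all genes passed, and most of the list passed at neither time. Phlda1 averaged 1934 ± 551 in GATA1-labelled cells at 42 h and 568 ± 55.0 in vector-labelled cells (1.71, adjusted p = 8.69e-04). Ier2 averaged 935 ± 161 in GATA1-labelled cells and 2114 ± 226 in vector-labelled cells (-1.17, adjusted p = 2.89e-04). Jun differed by -0.87 and Ier3 by -0.58 at 42 h, and by -0.86 and -0.78 at 18 h. With its second brightest probe set Jun differed by -0.05 at 42 h (adjusted p = 0.871) and by -0.35 at 18 h (adjusted p = 0.317). Egr1, an early growth response factor, averaged 1669 ± 143 in GATA1-labelled cells at 18 h and 727 ± 122 in vector-labelled cells (1.19, adjusted p = 0.00672), a call lost without the arrays lettered A (1.08, adjusted p = 0.158). At 42 h it averaged 642 ± 116 in GATA1-labelled cells and 628 ± 94.4 in vector-labelled cells, and the effects differed between the times (interaction -1.17, adjusted p = 0.0237), a call lost without any one of 6 single arrays. With the replicate block the 18 h call of Jun was lost (adjusted p = 0.0629). The 18 h calls of Jun and Ier3 were also lost without any one of 11 and of 5 single arrays, and the 42 h call of Ier3 without GATA1 42 h replicate B (adjusted p = 0.0505).

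Markers of cell types moved with the groups too. All 9 tested erythroid markers were higher in GATA1-labelled cells at 42 h and 3 at 18 h, and the summed intensity of the list ran from 33580 to 40683 in GATA1-labelled cells at 42 h, against 470 to 984 in vector-labelled cells. The listed Hba-a1 was above the array's median on no array and was not tested. Megakaryocyte markers summed to 32167 to 40760 in GATA1-labelled cells at 42 h, against 17008 to 17459 in vector-labelled cells, with 5 of 9 higher and 2 lower. Stem and progenitor markers, Kit among them, summed to 8622 to 9625 in GATA1-labelled cells and 11995 to 13559 in vector-labelled cells. Of the 5 tested, 3 passed as lower and 1 as higher. Mast cell and basophil markers summed to 82.0 to 117 in GATA1-labelled cells and 1568 to 2638 in vector-labelled cells, yet the defining markers Fcer1a, Ms4a2, Mcpt8, Mcpt4, Tpsb2, Tpsab1 and Cma1 were above the array's median on no array. Of the 2 mast cell and basophil markers tested, 1 passed, as lower. Granulocyte and monocyte markers summed to 371 to 471 in GATA1-labelled cells and 578 to 884 in vector-labelled cells, and lymphoid markers to 83.3 to 112 in GATA1-labelled cells and 120 to 195 in vector-labelled cells. Of the 4 granulocyte and monocyte markers tested, 1 passed as higher and 1 as lower. Of the 2 lymphoid markers tested, 1 passed, as lower. At 18 h erythroid markers summed to 3882 to 5660 in GATA1-labelled cells, against 397 to 1552 in vector-labelled cells, and megakaryocyte markers to 22348 to 28059 in GATA1-labelled cells, against 15069 to 18459 in vector-labelled cells. Their part in the changes of Dusp10, Dusp2 and Spred1 was not tested. GATA1 42 h replicate A had the highest 3' to 5' difference of the Actb control probe sets, 0.796 on the log2 scale against 0.380 to 0.550 on the other arrays. Its 18S control probe set was also the brightest, at 12.4 on the log2 scale. That probe set read 8.32 to 9.30 on the other arrays lettered A, 10.6 on vector 18 h replicate B and 4.79 to 6.75 on the remaining B and C arrays. The part of these signs in the results was not tested. Without GATA1 42 h replicate A the 42 h differences were 1.22 for Dusp10 (adjusted p = 9.08e-04), -0.69 for Dusp2 (0.0128) and -0.91 for Spred1 (0.00191).

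The genes most like a member over the 12 arrays were found by the root mean square difference of log2 values centred on each gene's mean. For Dusp10, whose own SD over the arrays was 0.62, they were Smim1 (0.17), Rabgap1l (0.17) and Slain2 (0.19). For Spred1, with an SD of 0.39, they were Klf10 (0.08), Ppcdc (0.10) and Usp28 (0.11). For Spry2, which was dim and had an SD of 0.27, they were Zfp652 (0.10), Sgf29 (0.12) and Hba-a2 (0.13). Hba-a2 differed by -0.06 at 18 h and -0.24 at 42 h, unlike the tested erythroid markers, which were higher at 42 h. All these points share the same 12 arrays.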

How the data were processed

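Total RNA of 12 samples was measured on an Affymetrix mouse array, in 4 groups of 3 set by the labels' titles. The deposited values are linear intensities, 1 per probe set and array. Per the submitters' processing notes GCRMA and MAS5 were used, with no version and no word on which made these values, so how the authors corrected background and scaled the arrays is unknown, and nothing further was normalized. Probe sets were named through the platform annotation: 34945 have 1 symbol, 932 several and 9224 none, and 34741 of the first matched a gene ID of RefSeq GRCm38.p6. No column of sample values was left unused, and no array was a copy of another (at most 0.0266% identical values in a pair).

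Values were taken as log2(intensity + 16). Each gene was represented by its brightest probe set on average and was tested if this lay above the array's median in 3 or more of the 12 arrays. The model (lmFit and eBayes of limma 3.58.1, R 4.3.3, two-sided) covered all 12 arrays, with Benjamini-Hochberg adjustment over 10759 genes and a threshold of 0.05. The fit was tried on simulated data with independent arrays, so that trial did not cover the shared deviations of same-lettered arrays. Figures were drawn with matplotlib 3.10.9 in Python 3.11.15. The p-values set each difference against the spread between arrays within groups of a single cell line, and the number of arrays limits the precision.

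The members, the gene lists and the tests were chosen with earlier results of these data known. All members were named. From each pathway list up to 3 genes in each direction past the threshold at 18 h and at 42 h, and up to 2 in the interaction, were taken, or the 2 brightest where none passed. Same-lettered arrays deviated together from their group means, with correlations of 0.246 to 0.657 between GATA1 and vector. The main fit left the letters out, so its p-values do not use this pairing, and the replicate block was an alternative that did. Between the times in GATA1 cells letters A and C gave 0.567 and 0.612, but letter B gave 0.0506. Pairing of the times was thus not shown for every letter there. Values over time by letter or with the replicate block are thus descriptions and alternatives, not tests of established pairs. The alternatives tried were the pseudocount, the filter, the probe set, quantile normalization, array weights, the replicate block, fitting only the arrays compared, and leaving out single arrays or the arrays lettered A.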

Additional observations from a re-analysis of the deposited data

How the results depend on the processing

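Of 625 member values recomputed under the alternatives, 573 kept their direction and their side of the threshold, 18 calls were lost, 15 were gained and 19 values changed direction, of which 0 had been past the threshold. The causes were not tested, except that a stricter filter and the second brightest probe set leave Dusp10 untested. At 18 h the number of members past the threshold was 1, and it was 0 with a pseudocount of 64, no filter, a stricter filter, the second brightest probe set, quantile normalization, only the arrays compared, or no arrays lettered A, and 0 to 1 with single arrays left out. At 42 h it was 3, and 2 with a stricter filter, the second brightest probe set or no arrays lettered A. When only the arrays compared were fitted it was also 3, but with Dusp4 in place of Dusp2. For the interaction it was 0, and 0 to 1 with single arrays left out. For GATA1 at 42 h against 18 h it was 1, and without the arrays lettered A this was Spred1 in place of Dusp2. It was 2 with a pseudocount of 1 or the mean over probe sets, 3 with a stricter filter or the replicate block, 4 with array weights, and 1 to 2 with single arrays left out. The replicate block changed no other member's call. The 199 genes past the threshold at 18 h became 119 without a filter, 114 with the second brightest probe set, 54 when the fit held just the arrays compared and 34 with letter A left out, and were 101 at the fewest with 1 array left out. The 2251 genes past the threshold at 42 h became 3053 with the replicate block. They were 1756 of 18193 without a filter and 1560 of 9107 with the second brightest probe set. The share of 20.9% thus depends on the setting. The 501 of the interaction became 319, 315 and 259 with no filter, the second brightest probe set and no arrays lettered A, and were 323 at the fewest with 1 array left out. For GATA1 over time 1574 became 1021 with the second brightest probe set and 2929 with array weights, and for vector over time 2 became 0 to 5 outside the replicate block.

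Values near 0 that turned were Spred2 at 18 h (-0.049 with the second brightest probe set, -0.061 with array weights, -0.042 without the arrays lettered A) and Dusp2 at 18 h (-0.00071 with array weights, -0.027 without the arrays lettered A). With single arrays left out, the ranges that crossed 0 were -0.19 to 0.16 for Spred2 and -0.054 to 0.081 for Dusp2 at 18 h, -0.23 to 0.026 for Spred2 at 42 h, -0.32 to 0.076 for Dusp4, -0.28 to 0.044 for Spry2 and -0.25 to 0.090 for Spred2 in the interaction, and -0.28 to 0.084 for Dusp4 and -0.047 to 0.22 for Spry2 over time in GATA1 cells. Among the other pathway genes this held at 18 h for Dusp11 (-0.097 to 0.15), Dusp19 (-0.14 to 0.012) and Map2k2 (-0.0056 to 0.38, and -0.056 with the second brightest probe set). It held for the dim Spry4 at 42 h (-0.011 to 0.016, -0.018 with array weights, -0.015 without the arrays lettered A), and for Spry3 at 42 h (-0.011 to 0.0040) and in the interaction (-0.0027 to 0.012, -0.0038 with quantile normalization, -0.0021 with array weights).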
